A study of Mus musculus with 29 samples.

Results

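Atoh1 binding was compared between a cell line that expressed Gfi1 and Atoh1 (iG+A) and a line that expressed Pou4f3 in addition (iGPA). A window of 300 bp was set on the summit of each of the 20504 Atoh1 peaks kept for iG+A and the 26231 kept for iGPA, and windows that shared at least 1 bp were joined into one site. This gave 35359 sites, of the 78408 that the 9 peak lists of the series form together. Of these, 10686 (30.2%) held a peak of both lines and are called shared, 9482 (26.8%) held a peak of iG+A only, and 15191 (43.0%) held a peak of iGPA only. Shared sites made up 53.0% of the 20168 iG+A sites and 41.3% of the 25877 iGPA sites. The classes rest on the peak lists alone, so that the number of sites is a description, and everything below on sequence, position and the other 7 lists was not used to form them.

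The study induced transcription factors of the inner ear in mouse embryonic stem cell lines, all made from the parental line A2loxCre, and mapped their binding in embryoid bodies (EBs) on day 6. In iG+A, doxycycline switched on a cassette with Gfi1 and FLAG-tagged Atoh1, and in iGPA a cassette with Gfi1, MYC-tagged Pou4f3 and FLAG-tagged Atoh1, each ending in the fluorescent reporter Venus. Both lines received doxycycline at 2 µg/ml for 48 h, and chromatin immunoprecipitation with an antibody to FLAG gave 2 Atoh1 libraries and 2 input libraries per line. The other lists used here come from lines treated in the same way: Atoh1 in iAtoh1 (Atoh1 alone) and in iP+A (Pou4f3 and Atoh1), Gfi1 in iGPA, which rests on 1 library, and Pou4f3 in iGPA, iP+A, iG+P (Gfi1 and Pou4f3) and iPou4f3 (Pou4f3 alone). The 2 libraries of a kind had been merged before peaks were called against merged input. Sites are therefore not replicates, the intervals given are 95% intervals that cover counting error only, and the added Pou4f3 cannot be told apart from any other difference between the lines, their cassettes or their libraries. As a measure of spread within the genome, the main differences between iGPA only and iG+A only sites are given with the number of the 20 chromosomes (1 to 19 and X) that share their direction.

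Atoh1 is a basic helix-loop-helix activator that pairs with E proteins and binds E-boxes, and it starts hair cell development in the inner ear as well as neuronal programmes elsewhere. Pou4f3 is a POU-homeodomain factor that binds AT-rich elements and is needed for hair cells to mature and survive. Gfi1 is a zinc-finger repressor that acts in hair cells and in blood cells. The sequence patterns counted were the Atoh1 E-box core (the hexamer CAGCTG, the hexamer CAGATG or the hexamer CATATG), the longer Atoh1 E-box pattern known as AtEAM in which the bases to each side are also constrained, the Pou4f element ATAATTAAT with at most 1 mismatch, the homeodomain core TAATTA, and the Gfi1 pattern AATCACAGC or AATCACTGC. Both strands of the 250 bp centred on the summit were searched, so that each pattern also counts as its reverse complement. A match is a match of letters and not a measured contact.

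Sequences are shown for the sites with the highest fold in each class outside short tandem repeats (units of 1 to 12 bp). They are the extremes of their classes and not typical members, for which the shares below stand. Each is 100 bp around the summit on the plus strand of mm9, in lower case, with E-box cores and Pou4f elements in capitals (in part where a match runs past the edge). The 3 strongest iGPA only sites had folds of 38.4, 33.5 and 32.5 and lay 119 kb upstream of Gm9961, 78.5 kb upstream of Thsd7a, both between genes, and in an exon of Nrxn2, which encodes a presynaptic adhesion protein, 7.78 kb upstream of the start assigned.
Gm9961 site, chr16:11782345-11782444: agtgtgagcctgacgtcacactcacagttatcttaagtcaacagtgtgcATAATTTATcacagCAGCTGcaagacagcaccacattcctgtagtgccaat
Thsd7a site, chr6:12777867-12777966: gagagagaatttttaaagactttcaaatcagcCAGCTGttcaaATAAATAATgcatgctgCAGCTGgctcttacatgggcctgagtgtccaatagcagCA
Nrxn2 site, chr19:6465282-6465381: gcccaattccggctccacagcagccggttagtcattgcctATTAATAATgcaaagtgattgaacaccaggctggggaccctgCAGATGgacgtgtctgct
Each held an E-box core and a Pou4f element, with 12.5, 12.5 and 40.5 bp between the centres of the nearest pair. Each had a Pou4f3 peak in all 4 Pou4f3 lists and an Atoh1 peak in iP+A, but none in iAtoh1, and none had a Gfi1 peak. They are also the 3 strongest of the 872 iGPA only sites outside repeats that combined both patterns with a Pou4f3 peak in iGPA.

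The 3 strongest shared sites were of another kind. They lay in introns of 6720456H20Rik (fold 53.1 in iG+A and 68.9 in iGPA), Dnahc2 (51.8 and 72.1) and Hgsnat (42.4 and 46.0). All were tandem arrays of E-box cores, with units longer than the 12 bp that the repeat filter covers. The most frequent distance between neighbouring cores was 25, 16 and 15 bp, and at Hgsnat 15 bp alternated with a longer distance. The arrays held 8, 13 and 10 cores in 250 bp and no Pou4f element.
6720456H20Rik site, chr14:49095441-49095540: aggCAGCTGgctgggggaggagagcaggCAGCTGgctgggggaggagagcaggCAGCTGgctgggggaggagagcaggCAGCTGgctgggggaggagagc
Dnahc2 site, chr11:69273538-69273637: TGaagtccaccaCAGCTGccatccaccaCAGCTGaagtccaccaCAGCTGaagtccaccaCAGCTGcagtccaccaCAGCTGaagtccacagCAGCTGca
Hgsnat site, chr8:27080176-27080275: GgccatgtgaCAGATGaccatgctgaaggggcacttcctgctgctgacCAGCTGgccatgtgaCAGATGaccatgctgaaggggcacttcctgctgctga
All 3 had an Atoh1 peak in both iAtoh1 and iP+A. Pou4f3 and Gfi1 peaks of iGPA overlapped them as well, without a Pou4f element.

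The strongest iG+A only sites were weaker, with folds of 9.08 in an intron of Atf2, 8.94 in an intron of Ulk4 and 8.48 at a site on the X chromosome 424 kb upstream of Tgif2lx1.
Atf2 site, chr2:73705969-73706068: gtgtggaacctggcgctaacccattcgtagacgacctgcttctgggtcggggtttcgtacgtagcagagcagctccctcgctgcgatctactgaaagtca
Ulk4 site, chr9:121138888-121138987: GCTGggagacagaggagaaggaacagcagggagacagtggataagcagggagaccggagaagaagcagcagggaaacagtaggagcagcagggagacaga
Tgif2lx1 site, chrX:116018003-116018102: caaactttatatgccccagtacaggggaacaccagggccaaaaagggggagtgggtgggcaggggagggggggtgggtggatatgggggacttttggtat
The sequences near Atf2 and Tgif2lx1 held neither pattern in 250 bp, and the Ulk4 site held 2 cores. The Atf2 site had no peak in any other list. The Ulk4 site was overlapped by Atoh1 peaks of both iAtoh1 and iP+A, and by the Pou4f3 list of iG+P alone. At the Tgif2lx1 site lay Atoh1 of iP+A, but not of iAtoh1, and Pou4f3 of every line mapped except iGPA. Neither of these sites overlapped a Gfi1 peak.

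A promoter and a pair of distal sites of hair cell regulators, chosen after their values were seen, are shown because the account of genes returns to them. The Nhlh1 promoter site, 0.236 kb upstream of its start, was shared. The sites 23.1 kb upstream of Barhl1 and 35.0 kb downstream of the start of Lhx3 were iGPA only.
Nhlh1 site, chr1:173987890-173987989: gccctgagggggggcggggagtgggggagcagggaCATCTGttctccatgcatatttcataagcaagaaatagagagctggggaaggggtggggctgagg
Barhl1 site, chr2:28795216-28795315: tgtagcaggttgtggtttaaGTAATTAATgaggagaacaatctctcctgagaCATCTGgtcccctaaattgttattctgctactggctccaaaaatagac
Lhx3 site, chr2:26023368-26023467: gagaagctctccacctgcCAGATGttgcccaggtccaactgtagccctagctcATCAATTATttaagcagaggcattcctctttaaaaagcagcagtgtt
The Nhlh1 site held a core and no Pou4f element, and the other two held both, 30.5 and 36.5 bp apart.

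Peak strength is given as the fold enrichment over local background that the peak caller reports at the summit. The median fold of shared sites was 3.61 in iG+A and 4.18 in iGPA. Sites of 1 line were weaker, with a median of 3.07 and a highest value of 13.3 among iG+A only sites, and a median of 3.20 and a highest value of 38.4 among iGPA only sites. Of the iG+A only sites 85.5% had a −log10 p under 10, against 70.7% of the iGPA only sites, so both classes lie largely near the lower end of their lists. In shared sites the summits of the 2 lines were a median of 24.0 bp apart, with 74.8% of pairs within 50 bp and 484 pairs (4.53%) at 200 bp or more, just inside the limit for joining. Just outside it, 465 iG+A only sites (4.90%) and 443 iGPA only sites (2.92%) had the nearest window of the other line less than 100 bp away.

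Of the shared sites 80.4% held the E-box core (79.7 to 81.2), against 72.1% in the iGPA only class (71.3 to 72.8) and 50.7% in the iG+A only class (49.7 to 51.7). Windows of the same length 1000 bp to each side of the summits held it in 32.1%, 32.9% and 31.3%, and 31.8% of 1022278 windows tiled over the genome held it. The line-specific classes differed by 21.4 percentage points (20.1 to 22.6), in the same direction on 20 of 20 chromosomes, and iGPA only sites differed from shared sites by -8.37 points (-9.40 to -7.33). The longer E-box pattern gave 22.1%, 16.7% and 9.76% in the same order, against 2.13% of genome windows, and a difference of 6.95 points (6.10 to 7.79, 20 of 20 chromosomes). The mean number of cores per site was 1.58, 1.17 and 0.786. At sites with a core, the core nearest to the summit lay a median of 12.0 bp from it in shared sites, 16.0 bp in iGPA only sites and 26.0 bp in iG+A only sites.

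Among the 10 kinds of E-box hexamer, CAGCTG separated the classes most, at 56.4% of shared, 44.1% of iGPA only and 26.8% of iG+A only sites, with 8.97% of genome windows. CAGATG followed with 44.3%, 40.5% and 29.8% against 18.4% of genome windows. CACCTG, which is not part of the Atoh1 core, was found at 27.3%, 28.1% and 18.7% of sites against 14.6% of genome windows, so that iGPA only sites held it about as often as shared sites. CATATG, the remaining form of the core, was found at 6.37% of shared, 7.35% of iGPA only and 5.54% of iG+A only sites, below the 7.87% of genome windows. Another 5 kinds were below their genome share in all 3 classes, among them CAAATG at 11.2%, 13.4% and 14.4% against 20.1%.

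The Pou4f element behaved differently from the E-box. It was found at 13.2% of iGPA only sites (12.7 to 13.8), but at 4.40% of iG+A only sites (3.99 to 4.83) and 3.71% of shared sites (3.36 to 4.08). The difference between the line-specific classes was 8.83 points (8.15 to 9.51) and had the same direction on 20 of 20 chromosomes. In the same order of classes the neighbouring windows held the element in 8.18%, 8.90% and 8.03%, and genome windows in 11.8%, so iGPA only sites lay above their own flanks, and the other classes lay below theirs. GC content differed between the classes as well, with a median of 55.2% in shared, 51.2% in iGPA only and 49.2% in iG+A only sites. The element without a mismatch was found at 176 iGPA only sites (1.16%), 15 iG+A only sites (0.158%) and 12 shared sites (0.112%). TAATTA gave 8.60%, 4.87% and 4.94%, with 6.50%, 6.91% and 6.25% in the flanks. The Gfi1 pattern was rare and had the opposite order, at 78 iG+A only sites (0.823%, 0.651 to 1.03), 41 iGPA only sites (0.270%, 0.194 to 0.366) and 46 shared sites (0.430%), against 0.516% of genome windows.

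**Figure D1:**
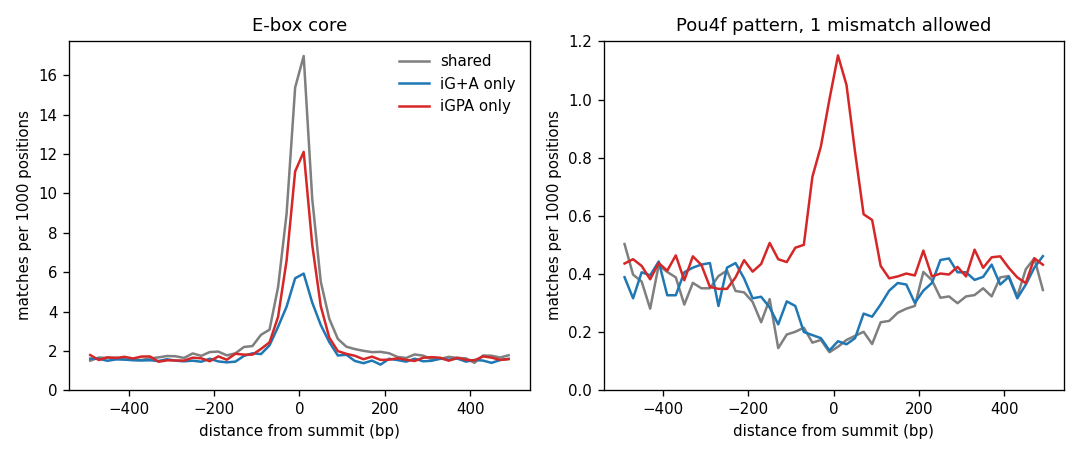
Matches per 1000 positions of the E-box core and of the Pou4f element against distance from the Atoh1 summit in bp, with 1 line for each class of sites. The E-box core peaks at the summit in all classes and is lowest in iG+A only sites, and the Pou4f element rises towards the summit in the iGPA only class and dips there in the others.

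Without preset patterns, the share of sites that held each hexamer was compared between the line-specific classes for the 1639 hexamers present in at least 5% of either. The 10 hexamers most above in iGPA only sites by ratio lay at 1.46 to 1.93 times their share in iG+A only sites. The first was ATTAAT, at 8.56% of iGPA only and 4.44% of iG+A only sites, followed by TAATTA with 8.60% and 4.87%. Next stood ATGCAT with 7.02% and 3.99%, then AATAAT with 16.0% and 9.47%, then AATTAT with 13.7% and 8.22%. Of the E-box forms, CAGCTG was the sixth and CACCTG the seventh. The last ones were ACCTGC with 19.2% and 12.9%, then AATTAA with 14.5% and 9.91%, then GCATAA with 7.10% and 4.87%. The 4 hexamers that can be read from the Pou4f element, or their reverse complements, were all among these 10. The 10 most below lay at 0.656 to 0.692 of their share in iG+A only sites, the lowest being GATATA with 4.12% against 6.29%, before CATATC with 4.89% against 7.46%.

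Both patterns together, an E-box core and a Pou4f element in the same 250 bp, were found at 1557 iGPA only sites (10.2%), 180 iG+A only sites (1.90%) and 270 shared sites (2.53%). The difference between the line-specific classes was 8.35 points (7.79 to 8.91, 20 of 20 chromosomes). At iGPA only sites the centres of the nearest pair were a median of 38.5 bp apart and 62.6% of pairs lay within 50 bp. The distance of 10 to 20 bp held 285 of these sites (18.3%), and that of 20 to 30 bp held 17.1%. At 10 to 20 bp lay 13.3% of the pairs of iG+A only sites and 9.63% of those of shared sites. The median distance was 57.0 bp at shared sites and 67.0 bp at iG+A only sites. In 4 iGPA only sites the matches overlapped. The Pou4f element itself lay a median of 40.5 bp from the Atoh1 summit in iGPA only sites, against 73.5 bp in iG+A only sites and 64.5 bp in shared sites.

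Pou4f3 occupancy was read from the 4 Pou4f3 lists. In the iGPA line, a Pou4f3 peak overlapped 3027 iGPA only sites (19.9%, 19.3 to 20.6), 327 iG+A only sites (3.45%, 3.09 to 3.84) and 975 shared sites (9.12%, 8.59 to 9.69). The difference between the line-specific classes was 16.5 points (15.7 to 17.2, 20 of 20 chromosomes). That list comes from the same line and the same merged input as the Atoh1 list that defines the class. In lists of other lines the order was the same with smaller gaps, at 16.6%, 9.62% and 14.1% in iPou4f3 and 18.1%, 11.0% and 13.1% in iP+A. In iG+P the shares were 21.6%, 20.2% and 17.9%, and the difference of 1.38 points (0.337 to 2.42, 15 of 20 chromosomes) changed with the sites admitted. It was 4.91 points (3.87 to 5.93, 18 of 20) without the regions with very many sites described below, -9.98 points (-12.1 to -7.85) with peaks of −log10 p of at least 10, and 0.830 points with an interval that includes 0 (-1.47 to 3.01) under both limits. The limit on −log10 p was applied to each Atoh1 list before joining. A shared site whose peak in 1 line fell under it therefore counts as line-specific in that setting. A peak in any of the 4 Pou4f3 lists was present at 36.4% of iGPA only, 30.1% of iG+A only and 30.2% of shared sites.

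**Figure D2:**
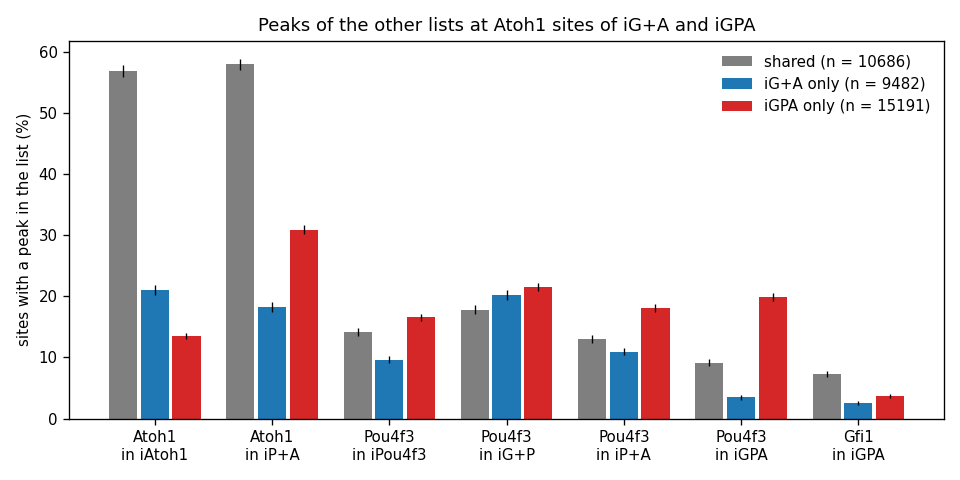
Percent of sites with a peak in each of the 7 other lists, by class, with 95% exact binomial intervals as error bars. Shared sites are highest for Atoh1 in iAtoh1 and iP+A (57.0% and 58.0%), and iGPA only sites are highest for Pou4f3 in iGPA (19.9%).

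The 3027 iGPA only sites with a Pou4f3 peak in the same line differed from the 12164 without one. The Pou4f element was found at 38.1% of the former (36.4 to 39.9) and 7.05% of the latter (6.60 to 7.52), a difference of 31.1 points (29.3 to 32.8). The E-box core was found at 73.4% and 71.8%, a difference of 1.62 points whose interval of -0.169 to 3.36 includes 0, and the longer E-box pattern at 13.9% and 17.4%. Sites with the Pou4f3 peak lay less often at promoters (16.1% against 26.6%) and more often over 50 kb from a coding start (34.3% against 22.5%). A Gfi1 peak of the same line was present at 10.4% and 1.97%. The Gfi1 shares had the same order in the other classes, at 18.6% and 6.17% of shared and 8.26% and 2.32% of iG+A only sites. The promoter shares had the opposite order there, at 39.0% and 29.4% of shared and 48.6% and 21.7% of iG+A only sites. In iGPA only sites with the Pou4f3 peak, the Pou4f element lay a median of 31.5 bp from the Atoh1 summit. Among sites without a peak in any of the 4 Pou4f3 lists, the Pou4f difference between the line-specific classes was 3.48 points and the longer E-box difference 7.63 points.

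Atoh1 was also mapped in 2 lines outside the comparison. Atoh1 in iP+A, which also carries Pou4f3 but no Gfi1 in its cassette, was present at 31.0% of iGPA only sites (30.2 to 31.7) and 18.3% of iG+A only sites (17.5 to 19.1), a difference of 12.7 points (11.6 to 13.8, 20 of 20 chromosomes). Atoh1 in iAtoh1 had the opposite order, with 13.5% (12.99 to 14.1) and 21.1% (20.3 to 21.9), a difference of -7.55 points (-8.54 to -6.57) that was negative on 18 of 20 chromosomes. Shared sites had a peak in iAtoh1 at 57.0% and in iP+A at 58.0%. With both lists read together, 24.1% of iGPA only sites had a peak in iP+A but not in iAtoh1, against 6.67% with the reverse. Among iG+A only sites these shares were 9.75% and 12.6%. Neither list held a peak at 62.4% of iGPA only, 69.2% of iG+A only and 28.3% of shared sites. Where iGPA only sites had a Pou4f3 peak in iGPA, 57.8% carried Atoh1 in iP+A and 6.24% in iAtoh1, and without the Pou4f3 peak 24.3% and 15.4%.

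Gfi1 was present in both cassettes, and its peaks in iGPA were few. They overlapped 7.30% of shared, 3.65% of iGPA only and 2.52% of iG+A only sites, and the line-specific classes differed by 1.13 points (0.685 to 1.56, 15 of 20 chromosomes). The direction was the opposite among sites outside the regions with very many sites and without a peak in any Pou4f3 list, with 1.15% of iGPA only and 1.77% of iG+A only sites (-0.623 points, -1.05 to -0.233, lower on 13 of 20). With peaks of −log10 p of at least 10 the difference was 0.887 points, with an interval of -0.212 to 1.88.

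Peak strength was set beside these features by ordering the sites of each class by fold and cutting them into 4 groups of equal size. Among iGPA only sites the E-box core was found at 55.6%, 69.6%, 75.8% and 87.3% of the groups from lowest to highest fold, and the Pou4f element at 8.37%, 10.9%, 11.5% and 22.2%. A Pou4f3 peak in iGPA was present at 8.98% of the lowest and 42.3% of the highest group, and an Atoh1 peak in iP+A at 18.5% and 57.6%. The share with an Atoh1 peak in iAtoh1 was 13.9% and 14.0% in these groups. Among iG+A only sites the E-box core was found at 50.3%, 49.0%, 49.6% and 53.9%, and the Pou4f element at 3.75% of the lowest and 5.11% of the highest group, while an Atoh1 peak in iAtoh1 was present at 12.95% and 35.0%. The highest group of iG+A only sites had 31.7% of its sites in the regions with very many sites described below, against 1.87% of the highest group of iGPA only sites. With those regions left out and the groups formed again, the share with an Atoh1 peak in iAtoh1 among iG+A only sites was 10.4% of the lowest and 27.8% of the highest group, and the E-box core was found at 52.7% and 61.6%. Among iGPA only sites the Pou4f element was then found at 8.40% of the lowest and 23.1% of the highest group, and the E-box core at 60.1% and 88.1%. In shared sites, ordered by their iGPA fold, the core was found at 58.0% of the lowest and 94.3% of the highest group.

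**Figure D3:**
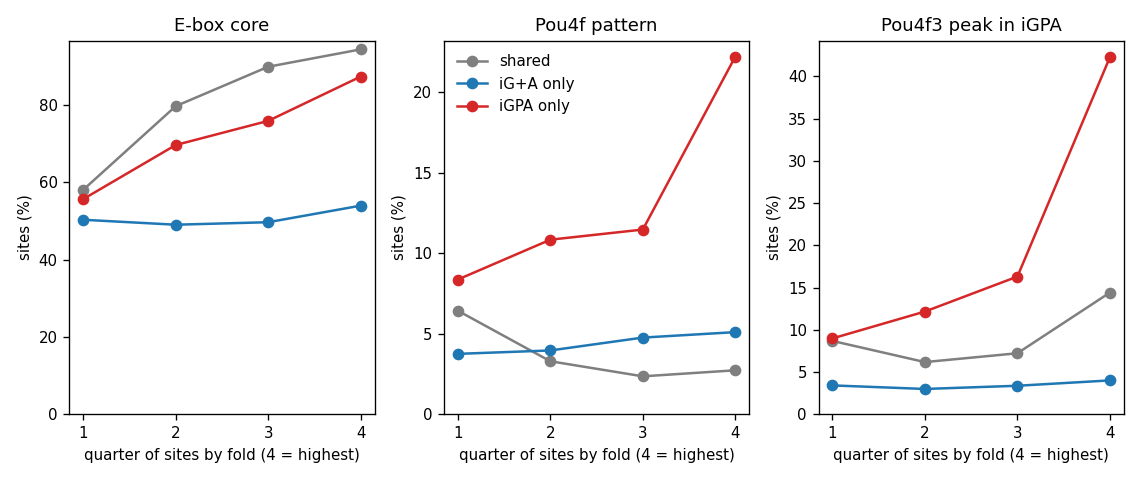
Percent of sites (y axis) with the feature named above each panel, for 4 groups of equal size ordered by fold enrichment within each class (x axis, 4 being the highest, shared sites by their iGPA fold). In the iGPA only class the E-box core (87.3%), the Pou4f element (22.2%) and the Pou4f3 peak (42.3%) have their highest share in group 4, and iG+A only sites lie between 49.0% and 53.9% for the E-box core.

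Sites were placed against the annotated transcripts. Promoter sites, within 1 kb of a transcript start, made up 30.3% of shared (29.4 to 31.2), 24.5% of iGPA only (23.8 to 25.2) and 22.6% of iG+A only sites (21.8 to 23.5). The last 2 differed by 1.88 points (0.786 to 2.96), but in opposite directions on 10 and 10 chromosomes, and without the regions with very many sites the difference was -0.195 points. Shared sites exceeded iGPA only sites by more, with the lower share in iGPA only sites on 18 of 20 chromosomes. Introns of coding genes held 33.3% of iGPA only, 29.3% of iG+A only and 30.5% of shared sites, exons 3.26%, 2.34% and 3.21%, and the space between genes 38.9%, 45.7% and 36.0%. The intron difference between the line-specific classes was 4.00 points (2.81 to 5.18, 19 of 20 chromosomes). The median distance to the nearest coding start was 9.18 kb for shared, 13.1 kb for iGPA only and 14.0 kb for iG+A only sites. At promoters, the E-box core was found at 72.3% of shared, 55.3% of iGPA only and 33.4% of iG+A only sites. In introns, these shares were 87.7%, 79.6% and 60.5%. The Pou4f element was found at 3.92% of iGPA only promoter sites, 16.3% of those in introns and 16.9% of those between genes.

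The sites were not spread evenly. Of 2409 bins of 1 Mb that held a site, 16 held at least 100 sites each, where the median bin held 9, and together these 16 bins held 3975 sites (11.2%). They took 19.8% of iG+A only sites, 8.94% of shared and 7.50% of iGPA only sites. The bins of chr14:3000001-9000000 alone held 1022 iG+A only sites (10.8% of the class), 566 iGPA only sites (3.73%) and 448 shared sites (4.19%), and those of chr4:145000001-147000000 held 379, 237 and 254 (mm9). Inside the 16 bins the E-box core was found at 33.1%, 36.4% and 38.9% of iG+A only, iGPA only and shared sites, near the 31.8% of genome windows, and outside them at 55.1%, 75.0% and 84.5%. Pou4f3 peaks of iG+P overlapped 42.7%, 46.8% and 59.2% of the sites inside and 14.6%, 19.5% and 13.8% outside. Without these bins the difference between the line-specific classes was 19.9 points (18.6 to 21.2) for the E-box core and 10.5 points (9.77 to 11.1) for the Pou4f element.

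At shared sites the strength of Atoh1 binding could be set side by side in both lines. The log2 ratio of fold, iGPA over iG+A, had a median of 0.20, and 7253 of 10686 sites (67.9%) were higher in iGPA. At least 2-fold higher were 683 sites, and at least 2-fold lower 59. The folds come from separately scaled lists with different numbers of peaks, and a difference in total signal cannot be told apart from a change in binding, so the comparison within the shared sites says more than the median itself. Sites with an E-box core had a median of 0.27 and those without one a median of -0.002. The 975 sites with a Pou4f3 peak in iGPA had a median of 0.33, of which 175 were at least 2-fold higher, against 0.19 for the 9711 others, of which 508 were. The 396 sites with a Pou4f element had a median of 0.06, against 0.20 for the rest, but 48 of them (12.1%) were at least 2-fold higher, against 635 of the 10290 others (6.17%). The 255 sites with the element that lay outside the 16 dense bins had a median of 0.26, against 0.25 for the 9476 sites outside without the element, with 18.8% and 6.65% at least 2-fold higher. Inside the 16 dense bins the median was -0.19.

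**Figure D4:**
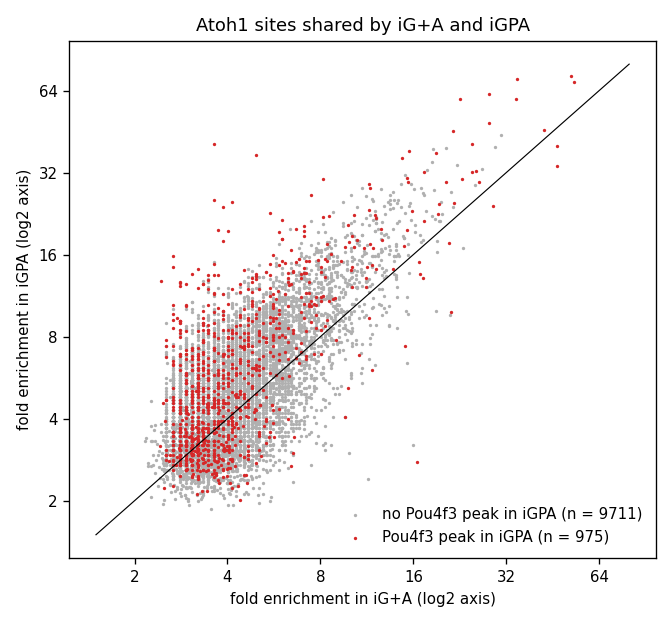
Fold enrichment of each of the 10686 shared sites in iG+A (x axis) and iGPA (y axis), both on log2 axes, coloured by whether a Pou4f3 peak of iGPA overlaps the site. Most points lie above the line of equal fold, and the points farthest above it carry a Pou4f3 peak.

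Of the 6622 shared sites that had a fold of at least 4 in the stronger line and no short tandem repeat, the site with the highest ratio was the Nhlh1 promoter site shown above, with a fold of 3.60 in iG+A and 40.9 in iGPA (log2 ratio 3.50). Nhlh1 encodes a helix-loop-helix factor of newborn neurons and hair cells. The next were sites 106 kb upstream of Ttc29 (4.94 and 37.0), 41.55 kb upstream of Lrrc55 (3.60 and 25.5), 4.12 kb into Khdrbs1 (3.87 and 24.0) and 77.6 kb into Gsg1l (4.14 and 25.0). An E-box core, a Pou4f3 peak in both iGPA and iP+A and an Atoh1 peak in the latter were found at all 5. The lowest ratios were much smaller in size, from -1.43 to -1.47, and belonged to sites nearest to Gm3095, Ryr3, Gm17430, Vmn2r32 and Zfp950, none of which had a Pou4f3 peak in iGPA. Of all shared sites, only 9.12% had such a peak, while 80.4% held an E-box core and 58.0% had an Atoh1 peak in iP+A.

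Each site was next assigned to the nearest coding start among 22279 genes. At least 1 site of any class was assigned to 54.4% of genes, and 28.4% had a shared site, 22.6% an iG+A only site and 35.2% an iGPA only site. Genes with iGPA only sites and no other site were 3130 (14.0%), and genes with iG+A only sites and no other site 1495 (6.71%). Long spaces between genes gather more sites, so the number of iGPA only sites per Mb of assigned sequence is given beside each list, where all genes had 4.03 shared, 3.57 iG+A only and 5.72 iGPA only sites per Mb. Within 50 kb of the start these shares of all genes were 25.2%, 18.8% and 30.7%.

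Among 20 regulators of hair cell development, 18 (90.0%) had an iGPA only site, 13 a shared site and 10 an iG+A only site, and iGPA only sites lay at 7.57 per Mb. Within 50 kb these counts were 15, 12 and 7. Barhl1, a homeobox gene of hair cells and cerebellar neurons, had 2 shared sites near its start and 6 iGPA only sites, with no iG+A only site. The shared sites had folds of 4.67 in iG+A and 11.0 in iGPA at 3.92 kb, and of 3.47 and 6.28 at 0.159 kb from the start. The iGPA only sites lay from 1.41 to 57.4 kb upstream, with folds from 3.45 to 8.37. Of these 6 sites, 5 overlapped Atoh1 peaks of iP+A, 3 overlapped Pou4f3 peaks of the same line as their own and 3 held a Pou4f element. Lhx3, a LIM-homeobox gene of hair cells and motor neurons, had a shared site 33.8 kb downstream of its start (7.34 and 15.1) and 5 iGPA only sites. The strongest of these, at 35.0 kb with a fold of 11.4, had peaks in all 4 Pou4f3 lists, in the Gfi1 list and in the Atoh1 list of iP+A, and the other 4 had no peak in any other list. Srrm4, a splicing regulator of neurons and hair cells, was mainly shared, with 6 shared sites and 1 iGPA only site, which alone of the 7 had a Pou4f3 peak in iGPA. Sox2, a factor of progenitor cells, had no shared site, 4 iGPA only and 3 iG+A only sites, all over 20 kb from its start.

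The genes of the cassettes were themselves near sites. Atoh1 had a shared site at 0.413 kb (fold 3.74 and 5.41), 3 iG+A only sites and 3 iGPA only sites. Pou4f3 had 2 iGPA only sites, 1.34 kb upstream (fold 3.69) and 0.736 kb downstream of its start (fold 4.43), both with a Pou4f3 peak in iGPA, and 1 iG+A only site at 1.23 kb (fold 3.07) in an exon. Gfi1 had 2 shared sites, 1 of each other class, and no fold above 4.14. Both cassettes carry the coding sequences of Gfi1 and Atoh1, and that of iGPA also carries Pou4f3, so that in exons of a gene held by the cassette of the same line reads of the cassette and of the gene cannot be told apart.

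Of 34 genes of the hair bundle and mechanotransduction, 18 (52.9%) had an iGPA only site, 10 (29.4%) a shared site and 11 (32.4%) an iG+A only site. Among all genes these shares were 35.2%, 28.4% and 22.6%. The list had 4.41 iGPA only sites per Mb, below that of all genes. Myo7a, the motor protein of the hair bundle, had 5 iGPA only sites and no other. They lay between 1.68 kb upstream and 1.02 kb downstream of the start, with folds of 3.20, 3.45, 4.06, 3.45 and 3.45, and none had a peak in any of the other 7 lists. Cdh23, a tip-link cadherin, had 2 shared and 6 iGPA only sites, the strongest 58.0 kb upstream of the assigned start in an intron, with a fold of 7.63 and a Pou4f3 peak in iGPA. The tip-link gene Pcdh15 had 4 iG+A only sites and 1 iGPA only site, with folds up to 3.47 and 4.06. Among 16 genes of hair cell synapses and channels, 11 (68.8%) had an iGPA only site, 3 (18.8%) a shared and 5 (31.2%) an iG+A only site, with 6.64 iGPA only sites per Mb. The calcium pump gene Atp2b2 had 6 iGPA only sites, with folds from 2.46 to 5.05, and an iG+A only site 0.053 kb from its start (3.34). Calb1, which encodes calbindin, had 2 iG+A only sites and no other.

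**Figure D5:**
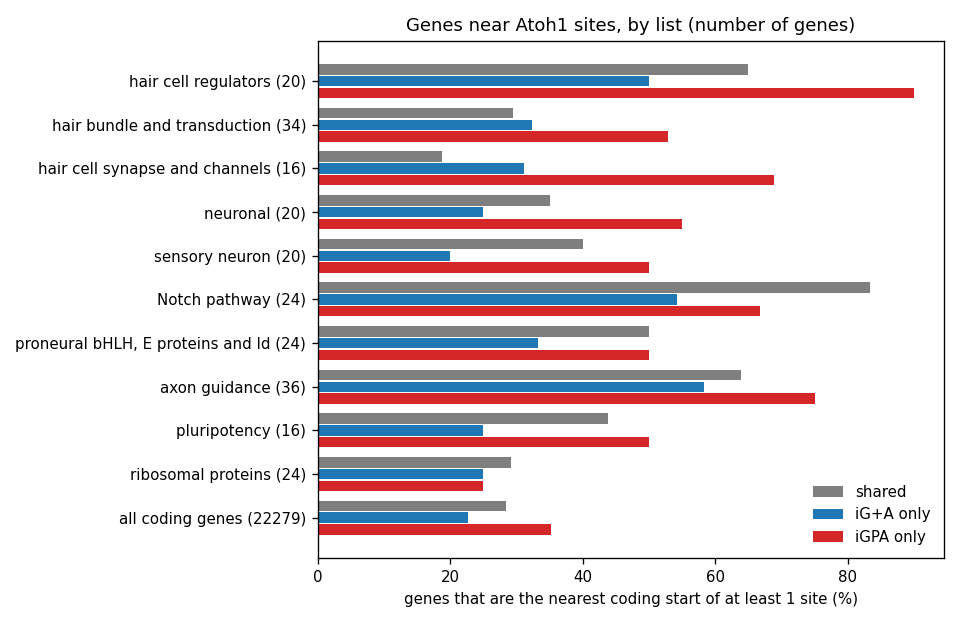
Percent of the genes of each list that are the nearest coding start of at least 1 site of each class, with the number of genes in parentheses and all coding genes at the bottom. Hair cell regulators reach 90.0% for iGPA only sites, against 35.2% of all coding genes. They also lie above all coding genes for shared sites (13 of 20 genes, against 28.4%) and iG+A only sites (10 of 20, against 22.6%). Their assigned sequence is longer, with a median of 101.4 kb against 45.63 kb. Per Mb they had 7.57 iGPA only, 4.99 shared and 2.925 iG+A only sites, against 5.72, 4.03 and 3.57 for all genes. The list of hair cell regulators includes Atoh1, Pou4f3 and Gfi1, the genes of the cassettes.

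Of 20 neuronal genes, 11 (55.0%) had an iGPA only site, 7 (35.0%) a shared and 5 (25.0%) an iG+A only site. Among all genes these shares were 35.2%, 28.4% and 22.6%. The neuronal genes had 6.40 iGPA only sites per Mb, against 5.72 for all genes. Within 50 kb their counts were 9, 6 and 2. Elavl4, an RNA-binding protein of neurons, had 7 iGPA only sites and no other, with folds from 2.71 to 4.43, and 5 of them had a Pou4f3 peak in iGPA. Mtap2, which encodes a dendritic microtubule protein, had 5 iGPA only sites and no other. The strongest of these lay 52.9 kb into the gene with a fold of 14.9, both patterns and peaks of Atoh1 in iP+A, of Pou4f3 in 3 lists and of Gfi1. Rbfox3 had 7 iGPA only and 3 shared sites, the strongest shared site being 0.735 kb upstream of the start (8.14 in iG+A and 7.11 in iGPA). Among 20 genes of sensory neurons, 10 had an iGPA only site, 8 a shared and 4 an iG+A only site, and their 5.70 iGPA only sites per Mb were close to the 5.72 of all genes. Runx1 had 6 iGPA only, 3 shared and 3 iG+A only sites, and Ntrk3 had 4 iGPA only sites and no other.

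In the Notch pathway shared sites were the class found at most genes. Of 24 genes, 20 (83.3%) had a shared site, 16 (66.7%) an iGPA only and 13 (54.2%) an iG+A only site, with 15.9 shared and 14.0 iGPA only sites per Mb. Among all genes these shares were 28.4%, 35.2% and 22.6%. The ligand gene Dll1 had 4 shared sites, the strongest 120.2 kb downstream (fold 12.5 in iG+A and 19.8 in iGPA), and 2 iGPA only sites. Another ligand gene, Dll4, had no shared site, 5 iGPA only and 2 iG+A only sites, the strongest iGPA only site being 3.50 kb upstream with a fold of 10.6 and a Pou4f3 peak in iGPA. Hes6, an antagonist of Hes repressors, had 3 shared sites, with folds of 25.4 and 28.8 at 0.195 kb upstream of its start, and 1 weak iGPA only site (2.71). Among 24 proneural factors, E proteins and Id proteins, 12 had a shared, 12 an iGPA only and 8 an iG+A only site, with 11.9 shared and 9.30 iGPA only sites per Mb. Atoh8 had 7 shared sites (up to 19.4 and 21.3) and 3 iGPA only sites with folds of at most 3.81. Neurog2 had 4 iGPA only sites and no other, the strongest 0.441 kb upstream (5.54) with peaks in all 4 Pou4f3 lists.

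Of 36 axon guidance genes, 27 (75.0%) had an iGPA only, 23 (63.9%) a shared and 21 (58.3%) an iG+A only site. Among all genes these shares were 35.2%, 28.4% and 22.6%. The axon guidance genes span 27.3 Mb, however, and had 3.59 iGPA only sites per Mb. Slit1, a secreted repellent, had 10 iGPA only sites, 5 shared and no iG+A only site; its iGPA only folds ran from 2.64 to 5.78. The lists for comparison gave 8 of 16 pluripotency genes with an iGPA only, 7 with a shared and 4 with an iG+A only site, at 5.57 iGPA only sites per Mb, also close to all genes, and 6, 7 and 6 of 24 genes of ribosomal proteins, which have short territories and 11.0 iGPA only sites per Mb. No list was tested as a set.

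Outside the 16 dense bins the genes with the most iGPA only sites were Gm16387, Cadm1 (28), Prl2c2 (28), Zmiz1 (21) and Olfr161. Several of these are members of multigene families. The study filtered reads for mapping quality, and whether copies still shared reads was not tested. Cadm1, a cell adhesion gene with 1144 kb of assigned sequence, also had 27 iG+A only and 19 shared sites. Zmiz1, a transcriptional coactivator, had 21 iGPA only, 8 shared and 5 iG+A only sites.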

How the data were processed

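Atoh1 chromatin immunoprecipitation libraries of iG+A and iGPA embryoid bodies were compared through their deposited peak lists, with 7 other lists of the series. Per the study's methods and the submitters' processing notes, reads were trimmed with Trimmomatic and aligned to mm9 with Bowtie2. They were cleared of duplicates with Picard and of blacklisted regions, and filtered for mapping quality. Peaks were called with MACS2 on merged libraries against merged input. The authors deposited, for each summit, the fold enrichment ratio and the −log10 p of the caller. The rule by which called peaks were kept in the summit lists is not given in the sources used here, and it left out 31.5% of iG+A and 17.2% of iGPA peaks. Read depth per library is not in these lists, so that precision is given for site counts only.

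From the summits, windows of 300 bp were joined at an overlap of at least 1 bp. Sequences were read from NCBIM37, which is mm9, and genes from GENCODE on that build. A promoter site lay within 1 kb of any annotated transcript start, and exons and introns are those of coding transcripts. Shares have exact Clopper-Pearson intervals and differences Newcombe intervals (95%), computed with scipy 1.17.1 and statsmodels 0.14.6 (Python 3.11.15) after a check on simulated data. No p-values and no set tests were computed. Named were the 3 strongest sites of each class outside short tandem repeats, at most 4 genes per list and class with the most sites, the 5 genes with the most sites among all genes, and the 5 shared sites with the highest and lowest fold ratio. The classes and the 10 gene lists were chosen with earlier results of these data known, and of the list members 231 were matched by symbol and 3 by an older symbol. Leaving out dense 1 Mb bins, and leaving out sites with a Pou4f3 peak, were added after the data were seen. One gene that the naming rule selects is not reported here.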

Additional observations from a re-analysis of the deposited data

Results flagged for a closer look

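Peaks that were called but not kept in the summit lists were used only in an alternative setting, and some of them fall on sites of 1 line. Of 15191 iGPA only sites, 1164 (7.66%, 7.24 to 8.10) overlapped a called iG+A peak that had been left out. Of 9482 iG+A only sites, 956 (10.1%, 9.48 to 10.7) overlapped a called iGPA peak that had been left out. With all called peaks in place of the kept ones, the classes held 15282 shared, 12748 iG+A only and 15459 iGPA only sites, and the Pou4f element was found at 4.60%, 4.67% and 13% of them.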

How the results depend on the processing

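No paired analysis was possible because the 2 libraries of each kind were merged before peaks were called, and no replicate could be left out for the same reason. Of 72 alternatives to the differences of shares, 62 kept direction and the side of 0, and of 33 alternatives to the counts of sites and of list genes, 30 stayed within 1.5 times. With only peaks of −log10 p of at least 10, the classes held 4065 shared, 2293 iG+A only and 7135 iGPA only sites. This limit was applied before joining, so the line-specific classes of that setting include sites that are shared in the main setting. Under the alternatives counted above, the Pou4f difference between iGPA only and iG+A only sites stayed within 1.00 and 11.0 points. That of the longer E-box stayed within 6.03 and 21.4, Atoh1 in iP+A within 12.7 and 17.1, and Atoh1 in iAtoh1 within -17.6 and -4.68. The extremes came in part from the exact element and the core alone. A further subset, sites outside the dense bins without a peak in any Pou4f3 list, gave smaller Atoh1 differences. They were 9.54 points for iP+A (8.375 to 10.68) and -2.275 points for iAtoh1 (-3.385 to -1.184). The promoter difference of 1.88 points had intervals that include 0 with windows of 100 bp (0.880) or 1000 bp (0.608) and within 5 kb of a start (0.944), was 9.43 with −log10 p of at least 10, -1.92 with lists of equal length and -0.195 without dense bins. The Pou4f3 difference in iG+P of 1.38 points had such intervals with windows of 1000 bp (0.947) and all called peaks (0.698), was -9.98 with −log10 p of at least 10, and 0.830 when the dense bins were left out as well. The Gfi1 difference of 1.13 points was 0.887, with an interval that includes 0, at −log10 p of at least 10. Apart from the dense bins, whose share of sites is given above, the cause was not tested. Read depth is not known from these lists, and what it limits was not tested.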

Other observations

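Outside the 16 dense bins the genes with the most shared sites were Cadm1 (19), Gse1 (19), Fam92b (17), Cxxc5 (15) and Prl2c2 (15). The strongest shared sites of Gse1, Fam92b and Cxxc5 had a fold in the higher line of 18.9, 18.1 and 18.8, and each of these 3 genes had only 3 iG+A only sites, beside 17, 11 and 7 iGPA only sites. On the X chromosome, 218 of 500 sites (43.6%) were iG+A only, and on chromosome 14, with its dense bins, 1420 of 3274 (43.4%), where the other chromosomes from 1 to 19 ranged from 18.8% to 29.3%.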
